A study of Mus musculus with 9 samples.

Results

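Gene expression was compared between LepR+ skeletal stem and progenitor cells of middle-aged mice, 52 weeks old and given no treatment, and those of young mice, 12 weeks old, with 3 libraries in each group. A gene was a member of the comparison when its mean over these 6 libraries was at least 10 normalized counts. This left 14970 of the 52459 genes in the table, of which 167 had an immunoglobulin symbol (starting Igh, Igk or Igl) and were counted apart from the other 14803. LepR+ cells were sorted by flow cytometry, outside the hematopoietic compartment, from collagenase-digested tibiae and femurs of C57B6 mice. The same series held 3 libraries of 52-week-old mice given sodium salicylate, which entered the fit only to estimate the spread between libraries. The labels do not say whether replicates were separate animals or pools, so p-values measure the spread between these libraries, which may be technical.

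Cells that express the leptin receptor form a perivascular network in adult bone marrow and are a main source there of Cxcl12 and Kitl, the chemokine and the growth factor that hold and maintain blood stem cells. They are also the progenitors from which much of the bone and marrow fat of the adult skeleton arises. B cells that have become plasma cells secrete antibody and live in the marrow close to this stroma. Antibody is made from heavy and light chains, each with a variable segment chosen by DNA rearrangement and a constant region that sets the class, IgM for Ighm and IgG for the Ighg genes. Full-length immunoglobulin transcripts are known from cells of the B lineage.

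The middle-aged libraries held 9902613 to 15142063 gene reads and the young ones 10973002 to 20746804. Stromal genes, with the receptor used for the sort among them, were abundant in the 6 libraries. Cxcl12, Lepr, Igfbp5 and Bgn were among the 5 most abundant protein-coding genes outside the immunoglobulins and the mitochondrially encoded genes, with B2m. Transcripts of the excluded compartment were present as well. The 9 leukocyte genes shared by all white blood cells summed to 14493 to 26614 normalized counts in the middle-aged libraries and 4302 to 6399 in the young ones, and none of the 9 was at 0. Middle-aged replicate 3 had the fewest genes with a read (16178, against 19462 and 21153 in the other middle-aged libraries and 20388 to 21370 in young libraries) and the smallest size factor (0.364, against 0.899 and 1.17 in the other middle-aged libraries and 0.891 to 1.67 in young libraries).

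Immunoglobulin transcripts took a larger part of every middle-aged library than of any young library. They made up 3.25% (exact 95% binomial interval 3.24 to 3.26), 16.5% (16.49 to 16.53) and 32.6% (32.58 to 32.63) of the reads in middle-aged replicates 1, 2 and 3. In young replicates 1, 2 and 3 they made up 0.230% (0.228 to 0.233), 0.108% (0.106 to 0.109) and 0.480% (0.476 to 0.484). These intervals cover counting error only, since amplified reads are not independent molecules. The lowest middle-aged share was thus above the highest young share, and the middle-aged libraries differed among themselves far more than the young ones. The mean share was 17.5% ± 14.7 in middle-aged libraries and 0.272% ± 0.190 in young libraries (SD, n = 3 each), and the two-sided exact permutation test gave p = 0.1, the smallest value that 3 libraries against 3 allow. Mitochondrial ribosomal RNA, another class that can fill a library, took 33.9% to 37.6% of the middle-aged reads and 27.5% to 35.1% of the young reads (exact permutation p = 0.2).

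**Figure D1:**
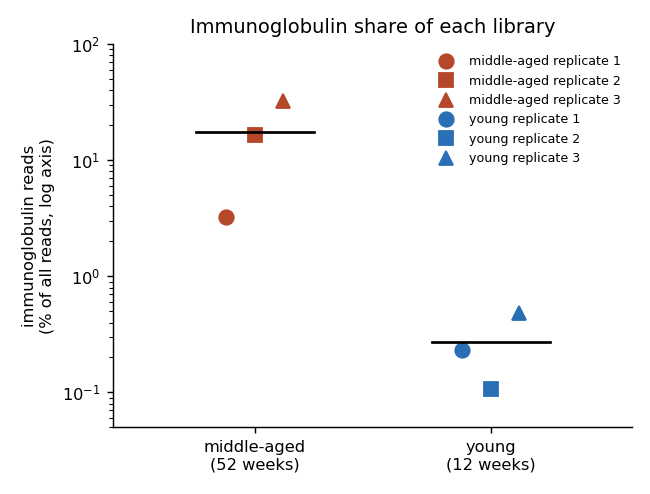
Percent of all reads that fell on immunoglobulin genes (logarithmic vertical axis) in each middle-aged library (left) and each young library (right); symbols mark the replicate and the bars the group means. The 3 middle-aged libraries sit between 3.25% and 32.6%, all above the young libraries, which reach 0.480%.

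Across the 14803 other genes, 277 were higher and 130 lower in middle-aged libraries at an adjusted p under 0.05 (limma on log2 of the normalized count + 1, Benjamini-Hochberg over all 14970 genes), which is 1.87% and 0.878% of them. Of the 167 immunoglobulin symbols, 43 were higher and 0 lower, and at an unadjusted p under 0.05 these counts were 109 and 0. At the same limit 1463 of the 14803 other genes were higher and 1951 lower, the background for the unadjusted counts of lists below. With either tool applied to the recovered reads, 0 immunoglobulin genes were lower at an adjusted p under 0.05, and edgeR called 33 and DESeq2 70 higher. At an unadjusted p under 0.05, edgeR had 3 and DESeq2 had 1 immunoglobulin genes lower. Over all tested genes 3.01% were called, 2.14% higher and 0.868% lower. The median log2 fold change was 5.25 over the immunoglobulin symbols, 161 of which were positive, and -0.09 over the other genes. Of 396 immunoglobulin symbols, 167 passed the filter on the mean of the 6 libraries. A symbol with few or no young reads passed only through its middle-aged counts, so its direction was largely fixed in advance. The 161 and the 5.25 are therefore descriptions only. In all 407 other genes that were called, the middle-aged and young libraries did not overlap, but this alone was common: 12.4% of all tested genes lay above and 15.1% below the young range without regard to the test.

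**Figure D2:**
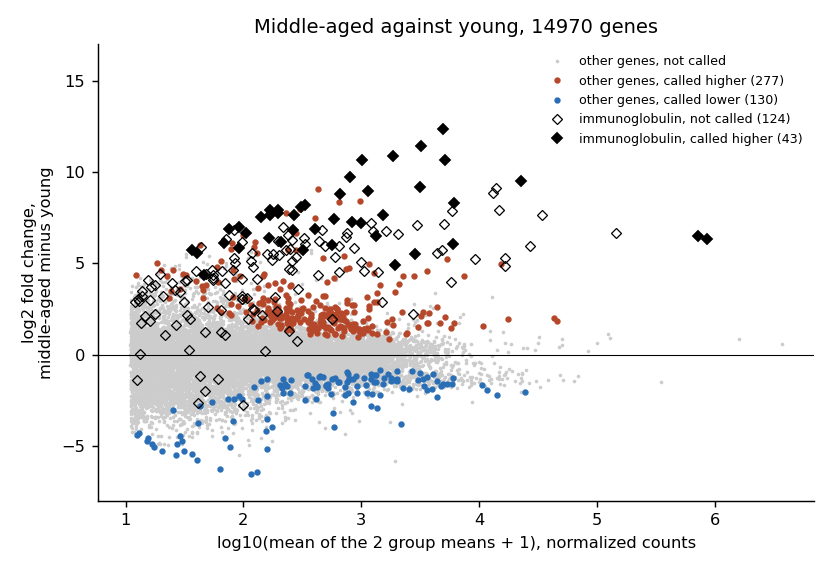
Log2 fold change of middle-aged minus young (vertical axis) against the log10 of the mean normalized count + 1 (horizontal axis) for the 14970 genes tested; red points are other genes called higher (277), blue points other genes called lower (130), diamonds immunoglobulin symbols, filled where called (43). The immunoglobulin symbols lie almost entirely above 0 and hold the largest changes.

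Calls depended on single libraries. With middle-aged replicate 1 left out of the fit, all 277 higher, all 130 lower and all 43 immunoglobulin calls were kept, and without middle-aged replicate 3 the numbers kept were 239, 125 and 40. Without middle-aged replicate 2 only 6 higher, 4 lower and 16 immunoglobulin calls were kept. Without young replicate 1, 2 or 3 the higher calls kept were 19, 19 and 34, the lower calls 3 each time and the immunoglobulin calls 22, 19 and 18. The treated libraries mattered through the shared spread: without treated replicate 1, 2 or 3 the higher calls kept were 103, 110 and 189, and the lower calls kept were 22, 22 and 47. Every call named below, other than the 20 genes described next, was lost without middle-aged replicate 2, and all but those of Slamf9, H2-Ab1 and Iglc3 were lost without at least 1 young library as well. The highest adjusted p over these 9 fits is given for the main ones.

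**Figure D3:**
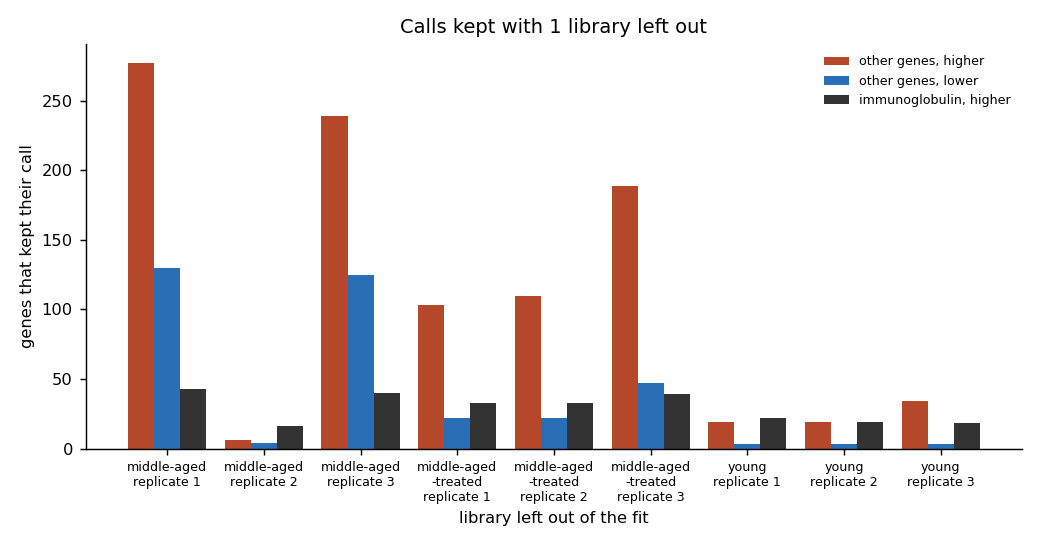
Number of genes (vertical axis) that kept their call and direction when the library named on the horizontal axis was left out; red bars are other genes called higher (277 with all libraries), blue bars other genes called lower (130) and dark bars immunoglobulin genes (43). Leaving out middle-aged replicate 2 or any young library left 34 or fewer of the 277.

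Only 20 genes kept their call with each of the 9 libraries left out in turn. Of these, 13 were immunoglobulin genes, 5 were other genes that were higher and 2 were other genes that were lower. The 7 genes outside the immunoglobulins are given in full here, and were singled out after their values were seen.

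Lcp1, which encodes L-plastin, an actin-bundling protein of leukocytes, had 4142, 5849 and 5656 normalized counts in middle-aged libraries, against 1318, 936 and 1441 in young libraries (log2 fold change 2.09 ± 0.26 (SE), adjusted p = 0.0072). Itgb2, the beta-2 integrin chain found on all leukocytes, had 1029, 1082 and 1205 normalized counts in middle-aged libraries, against 263, 152 and 277 in young libraries (2.30 ± 0.29, adjusted p = 0.0076). Igsf6, an immunoglobulin-superfamily gene of myeloid cells, had 782, 1072 and 1155, against 209, 224 and 213 (2.20 ± 0.27, adjusted p = 0.0072). In these 3 genes the middle-aged libraries lay close together, unlike their immunoglobulin shares. Ptpre, a receptor-type tyrosine phosphatase, had 568, 664 and 765 normalized counts in middle-aged libraries and 98.6, 116 and 103 in young ones (2.63 ± 0.34, adjusted p = 0.0084). Fcgr2b, the inhibitory receptor for IgG on B cells and myeloid cells, had 299, 246 and 578, against 33.7, 12.6 and 50.5 (3.60 ± 0.52, adjusted p = 0.014). Clstn2 and Pard3, which were lower, had equally tight groups. Clstn2, a calsyntenin of the cadherin superfamily (chromosome 9, 97444395 to 98033181, minus strand, GRCm38), had 0.86, 1.11 and 0 normalized counts in middle-aged libraries, against 109, 110 and 150 in young libraries. Pooled over libraries its reads were 145-fold lower in middle-aged libraries, with a counting interval of 40.0 to 1203 (adjusted p = 0.0072). Pard3, a scaffold of cell polarity and junctions, had 152, 162 and 149 normalized counts in middle-aged libraries, against 503, 510 and 529 in young ones (-1.73 ± 0.23, adjusted p = 0.0084). Set against the niche genes of the stroma, described further on, Pard3 was not lower by the test: its log2 fold change was -0.40 (adjusted p = 0.55) under that scaling, and per 1000 counts of Lepr it stood at 2.63 to 10.3 in middle-aged libraries and 5.17 to 6.54 in young ones. The highest adjusted p of these 7 genes with a library left out lay between 0.042 and 0.048.

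**Figure D4:**
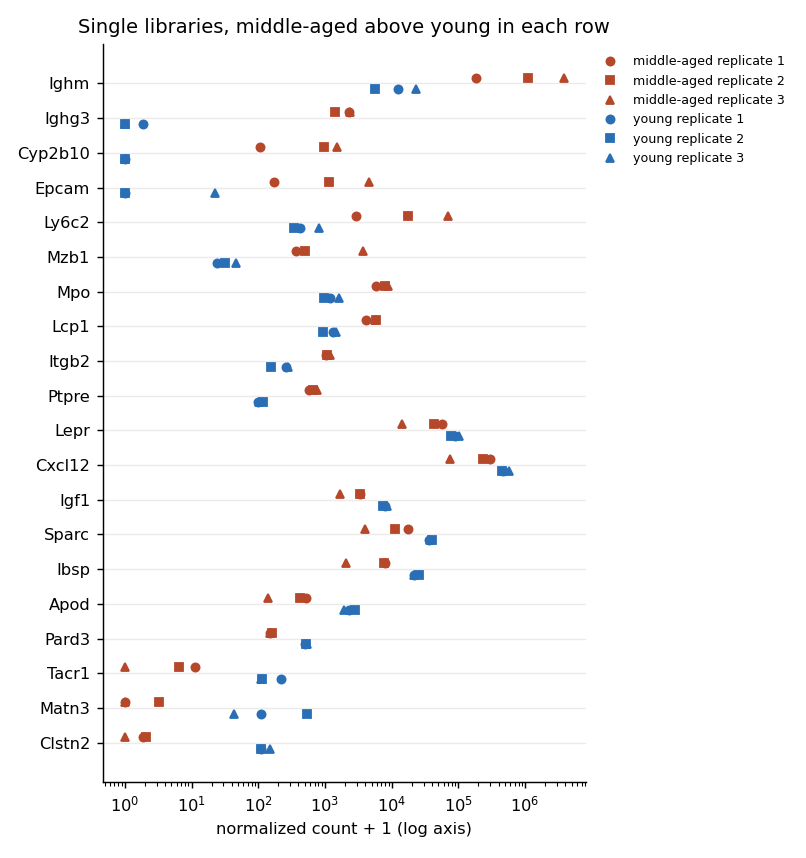
Normalized count + 1 (logarithmic horizontal axis) of 20 genes in each library, with the middle-aged libraries in red above the young libraries in blue in each row and symbols for the replicates. Lcp1, Itgb2, Ptpre, Pard3 and Clstn2 have tight, separate groups; Ighm, Cyp2b10, Epcam and Ly6c2 spread widely among the middle-aged libraries.

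All 11 tested antibody constant-region genes had a positive log2 fold change, and 7 passed the test, beside 2.14% of all tested genes that were higher. Ighm, the IgM heavy chain (chromosome 12, 113418558 to 113422730, minus strand, GRCm38), had 184862, 1123040 and 3827810 normalized counts in middle-aged libraries, against 12251, 5641 and 22884 in young libraries (6.31 ± 1.08, adjusted p = 0.019). Igkc, the kappa light chain constant region (chromosome 6, 70726435 to 70726966, plus strand), had 110943, 865755 and 3319010, against 7069, 3002 and 20906 (6.48 ± 1.20, adjusted p = 0.025). For both genes the groups did not overlap, and middle-aged replicate 3 stood highest. Ighg3, an IgG heavy chain (chromosome 12, 113356224 to 113361232, minus strand), differed in being nearly absent from the young libraries: it had 2311, 1406 and 2393 normalized counts in middle-aged libraries, against 0.89, 0 and 0 in young libraries. With a single young read, the pooled ratio was 7334 with a counting interval of 1316 to 289749 (adjusted p = 1.8e-06, and at most 6.7e-05 with a library left out). The lambda constant regions Iglc1, Iglc2 and Iglc3 were higher by 6.08, 4.89 and 6.48 on the log2 scale, and Ighg2c by 9.53 (3555, 126878 and 5460 normalized counts in middle-aged libraries, against 1034, 1.79 and 1.12 in young ones; adjusted p = 0.038, and 0.13 by edgeR). Ighg1, Ighg2b, Igha and Ighd did not pass the test. Ighg1 had 15071, 1686 and 6778 normalized counts in middle-aged libraries and 1592, 1003 and 0 in young ones, and Ighg2b had 11419, 7920 and 9281, against 59.5, 1.79 and 1825. Igha, the IgA heavy chain, had 5979, 3370 and 4140, against 1412, 797 and 748 (2.21 ± 0.76, adjusted p = 0.13). Ighd, the heavy chain of IgD on naive B cells, was the smallest difference among the constant regions, with 75.4, 82.3 and 121 in middle-aged libraries and 68.4, 30.5 and 37.0 in young ones (1.07 ± 0.52, adjusted p = 0.24).

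IgM was the main class in both groups. Ighm took 82.8% (exact 95% interval 82.7 to 82.9), 88.8% (88.76 to 88.88) and 99.3% (99.26 to 99.28) of the heavy-chain constant reads in middle-aged libraries, against 74.6% (74.0 to 75.2), 75.5% (74.7 to 76.2) and 89.8% (89.4 to 90.1) in young libraries. The groups overlapped in this share. More variable segments were detected in middle-aged libraries: 155 to 172 had a read, against 65 to 74 in young libraries, and 109 to 129 had at least 10 reads, against 33 to 40. The middle-aged libraries held more immunoglobulin reads in which segments could be found, so these counts are not matched for depth. Of 70 tested heavy, 72 kappa and 3 lambda variable segments, 15, 15 and 1 passed the test, all higher, beside 2.14% of all tested genes. The medians over the tested segments were 4.55, 5.32 and 5.52. Segments with few or no young reads were tested only through their middle-aged counts, which bears on these medians. The 3 segments with the largest change were Igkv3-4, Igkv5-39 and Igkv12-44, all kappa segments of chromosome 6 (GRCm38, 70671788 to 70672377, 69900424 to 69900977 and 69814631 to 69815154). Igkv3-4 had 1442, 7289 and 21118 normalized counts in middle-aged libraries, against 0, 0.60 and 0 in young libraries, a pooled ratio of 24154 with a counting interval of 4335 to 954081 (adjusted p = 0.00081). Igkv5-39 had 1700, 2449 and 15245, against 0, 0 and 2.25 (pooled ratio 7384, 2043 to 60978, adjusted p = 0.00013). Igkv12-44 had 1162, 7516 and 2561, against 0, 0 and 2.25 (pooled ratio 6864, 1900 to 56685, adjusted p = 0.0042). The most abundant segment, Igkv15-103, was picked out after its values were seen and did not pass the test: it had 14918, 234416 and 612953 normalized counts in middle-aged libraries and 2179, 237 and 4082 in young ones (adjusted p = 0.067). It alone took 18.0%, 52.0% and 36.7% of the variable-segment reads in middle-aged libraries, against 31.6%, 8.72% and 33.8% in young ones. Variable segments resemble each other closely, so reads may be divided among them with error.

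The largest increases outside the immunoglobulins were in genes with few or no reads in young libraries, and most followed Ighm across the middle-aged libraries. Cyp2b10, a cytochrome P450 known from liver (chromosome 7, 25897620 to 25926624, plus strand), had 104, 971 and 1491 normalized counts in middle-aged libraries and no read in the young ones. This was at least 328-fold higher, against 3 reads per young library (adjusted p = 0.014, and 0.066 without middle-aged replicate 2). Epcam, an epithelial cell adhesion molecule (chromosome 17, 87635979 to 87651129, plus strand), had 170, 1129 and 4536, against 0, 0 and 21.3 (8.41 ± 1.40, adjusted p = 0.018). Klra17, of the family of killer-cell lectin-like receptors, had 74.5, 461 and 3378, against 0, 0 and 2.25 (pooled ratio 1312, 363 to 10844, adjusted p = 0.014). Slamf9, a receptor of the signaling lymphocytic activation family, had 108, 455 and 1257, against 0.89, 0 and 1.12 (pooled ratio 753, 208 to 6225, adjusted p = 0.0084). In each of the 4 genes, replicate 3 was the highest and replicate 1 the lowest middle-aged library, as for the immunoglobulin share. H2-M10.1, a nonclassical major histocompatibility gene, had 72.8, 111 and 1191 normalized counts and no young read, at least 176-fold higher (adjusted p = 0.018). The other 5 of the 10 largest increases named were Oosp1, Hepacam2, Pgam2 (a muscle-type phosphoglycerate mutase), Cldn7 (a tight-junction claudin) and Stac2, with log2 fold changes of 7.48, 6.93, 6.67, 6.55 and 6.18 and adjusted p-values of 0.018, 0.027, 0.018, 0.027 and 0.033.

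Set against 1000 normalized counts of Ighm, these 10 genes differed in how steady they were across the middle-aged libraries. Their ratios are given for these libraries alone, since the 10 genes had few or no reads in young libraries. Epcam stood at 0.917, 1.01 and 1.19 per 1000 Ighm counts, Oosp1 at 0.519, 0.398 and 0.485, and Cldn7 at 0.144, 0.113 and 0.115. Pgam2 stood at 0.399, 0.285 and 0.332, Slamf9 at 0.584, 0.405 and 0.328, and Stac2 at 0.107, 0.0842 and 0.163. The others varied more: H2-M10.1 stood at 0.394, 0.0991 and 0.311, Klra17 at 0.403, 0.410 and 0.882, Hepacam2 at 0.232, 0.393 and 0.501, and Cyp2b10 at 0.561, 0.865 and 0.390. Ly6c2, an Ly6 surface antigen picked out after its values were seen, stood at 15.9, 15.6 and 18.3. In young libraries the Ly6c2 ratio was higher, at 34.6, 60.6 and 35.1, so it was not steady across the ages. Lcp1, by comparison, stood at 22.4, 5.21 and 1.48 per 1000 Ighm counts. Over all called genes, 184 of the 277 higher genes (66.4%) increased from the library with the lowest to that with the highest immunoglobulin share, an order seen in 21.3% of all other genes. Of the 130 lower genes, 78 (60.0%) had the reverse order, seen in 26.1% of all other genes. Both shares are descriptions over 3 libraries, and whether they bear on the differences between the ages was not tested.

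The 12 plasma cell genes were all at or above 0 in log2 fold change, 4 of them passed the test, against 2.14% of all tested genes that were higher, and the list median was 3.61, against -0.07 over all genes tested. The summed level of the 12 genes was 17824 to 119390 normalized counts in middle-aged libraries and 5534 to 8448 in young libraries, and none of them was at 0. Mzb1, an endoplasmic reticulum protein that helps IgM assembly, had 368, 497 and 3771 normalized counts in middle-aged libraries, against 23.1, 31.1 and 46.0 in young ones (4.74 ± 0.86, adjusted p = 0.024). Pou2af1, a coactivator of immunoglobulin transcription, had 1254, 2934 and 17066, against 121, 141 and 257 (4.60 ± 0.85, adjusted p = 0.025). Eaf2, an elongation factor partner, had 78.0, 245 and 1309, against 0.89, 3.59 and 19.1 (5.72 ± 1.16, adjusted p = 0.033). The fourth was Tnfrsf13b, a receptor for B cell survival factors, with 161, 617 and 2619, against 23.1, 46.7 and 34.8 (4.21 ± 0.91, adjusted p = 0.038). In these 4 genes the groups did not overlap and middle-aged replicate 3 was far above the others. By edgeR 5 of the 12 passed and by DESeq2 10. Other genes known from antibody-secreting cells did not pass by limma. Jchain, the joining chain of IgM and IgA, had 11557, 8536 and 51162 normalized counts in middle-aged libraries and 1848, 1349 and 2887 in young ones (3.15 ± 0.78, limma adjusted p = 0.057). Xbp1, Prdm1 and Irf4, transcription factors of antibody-secreting cells, had limma adjusted p-values of 0.095, 0.087 and 0.080. By edgeR Prdm1 passed (adjusted p = 0.044), and by DESeq2 Jchain, Xbp1, Prdm1 and Irf4 all did (adjusted p = 0.011, 0.00021, 0.00019 and 2.0e-05). Irf4 had 313, 1451 and 5182 normalized counts in middle-aged libraries and 269, 178 and 123 in young ones. These 4 members were chosen after their values were seen. Bhlha15, a factor of secretory cells that was also chosen after its values were seen, had 25.7, 103 and 594, against 0, 7.18 and 0 (5.88 ± 1.27, adjusted p = 0.038).

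The 13 genes of the B cell list, which includes the B cell receptor component Cd79b and the recombinase Rag1, were all positive (median 1.69), and 0 passed by limma or edgeR, while DESeq2 called 5 and 8 were higher at an unadjusted p under 0.05. Cd79b had 284, 482 and 2522 normalized counts in middle-aged libraries and 146, 77.8 and 239 in young ones (2.32 ± 0.71, adjusted p = 0.096), and Fcrla had 147, 349 and 2789, against 34.6, 106 and 192 (adjusted p = 0.17). Of 16 genes for protein folding and secretion in the endoplasmic reticulum, all 16 were positive (median 1.25) and 1 passed, Creld2, with 366, 2029 and 5359 normalized counts in middle-aged libraries and 135, 166 and 161 in young ones (3.36 ± 0.78, adjusted p = 0.047). Among 13 antigen presentation genes, Cd74, the invariant chain of class II molecules, and the class II gene H2-Ab1 were higher. The median of the 13 was 1.03, 3 were negative, and 2 were lower at an unadjusted p under 0.05. The calls in these folding and antigen presentation lists stand beside the 2.14% of all tested genes that were higher. Cd74 had 2397, 6828 and 34000, against 317, 255 and 849 (4.32 ± 0.85, adjusted p = 0.030). H2-Ab1 had 289, 425 and 473, against 95, 50.3 and 78.6 (2.41 ± 0.34, adjusted p = 0.014). Cd274, the checkpoint ligand PD-L1, was picked out after its values were seen and had 526, 4179 and 11757 normalized counts in middle-aged libraries, against 178, 81.4 and 220 in young ones (4.32 ± 0.92, adjusted p = 0.037).

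Leukocyte genes shared by all white blood cells and neutrophil granule genes were the lists with the most calls. All 9 shared leukocyte genes were higher (median 2.01), as were 10 of 12 neutrophil genes (median 1.98, all 12 positive and all 12 without overlap) and 5 of 12 macrophage genes (C1qb, Mrc1, Fcgr3, C1qc and Lyz2; median 2.24, all 12 positive). These counts stand beside the 2.14% of all tested genes that were higher by the test and the 12.4% that lay above the young range. Ptprc, which encodes CD45 and marks the cells that the sort set aside, had 1372, 1659 and 1483 normalized counts in middle-aged libraries, against 827, 537 and 413 in young libraries (1.40 ± 0.27, adjusted p = 0.029). Vav1, a signaling adaptor of blood cells, had 192, 294 and 484, against 23.1, 95.7 and 19.1 (3.07 ± 0.60, adjusted p = 0.029). Cd53 was higher by 2.31 ± 0.43 and Ptpn6, a phosphatase of blood cells, by 2.23 ± 0.37 (adjusted p = 0.025 and 0.018). The middle-aged libraries were all above the young ones in each of these 4 genes. Mpo, myeloperoxidase of neutrophil granules, had 5756, 8000 and 8943 normalized counts in middle-aged libraries, against 1181, 967 and 1631 in young ones (2.59 ± 0.37, adjusted p = 0.014, and 0.066 without middle-aged replicate 2). Elane, neutrophil elastase, had 1036, 2695 and 2313, against 349, 214 and 353 (2.64 ± 0.43, adjusted p = 0.018). Ctsg, cathepsin G, had 315, 527 and 567, against 40.0, 133 and 109 (2.43 ± 0.48, adjusted p = 0.030). S100a8 and S100a9, the most abundant neutrophil transcripts here and chosen after their values were seen, were higher by 1.99 ± 0.37 and 1.84 ± 0.40. S100a8 had 54186, 61202 and 92713 normalized counts in middle-aged libraries, against 13999, 15220 and 22867 in young ones. The 12 neutrophil genes together summed to 162981 to 273690 normalized counts in middle-aged libraries and 45603 to 72398 in young ones. In bulk RNA, more cells of a type and more of its RNA per cell cannot be told apart.

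Macrophage genes that rose included C1qb, a chain of complement C1q, with 138, 82.3 and 245 normalized counts in middle-aged libraries, against 34.6, 9.57 and 29.2 in young ones (2.66 ± 0.60, adjusted p = 0.043). This call was lost in 8 of the 9 fits with a library left out. Mrc1, the mannose receptor, was higher by 2.50 ± 0.43 and Fcgr3, an IgG receptor, by 2.32 ± 0.38 (adjusted p = 0.019 and 0.018). Cybb and Ncf1, subunits of the phagocyte oxidase, were looked up after the values were seen, and were higher by 1.71 ± 0.26 and 1.73 ± 0.28. Cybb had 5052, 6483 and 9961 normalized counts in middle-aged libraries, against 2453, 1798 and 2113 in young ones. Single calls in other blood lists were Nkg7 of natural killer cells (2.79 ± 0.55), Prg2 of eosinophils (2.77 ± 0.44), Car1 of erythroid cells (1.16 ± 0.24) and Mmp9 of osteoclasts and neutrophils (1.11 ± 0.23). They were 1 of 3, 1 of 5, 1 of 10 and 1 of 3 tested genes of their lists, beside 2.14% of all tested genes. The list medians were 2.05, 0.55, 0.19 and 1.11, and 3 of the 10 erythroid genes were negative. Cd3g was at 0 in all middle-aged libraries, and Cd3d and Klrb1c at 0 in all young ones. The summed levels of the 10 T and natural killer cell genes were 251 to 563 normalized counts in middle-aged libraries and 48.8 to 88.7 in young ones. Nkg7 held much of these sums, with 95.9, 424 and 264 in middle-aged libraries and 29.3, 26.9 and 38.2 in young ones. Only 3 of the 10 genes were high enough to be tested. Of 6 megakaryocyte genes, 0 passed by limma or edgeR and 1 by DESeq2, 1 was higher at an unadjusted p under 0.05, and their sums overlapped, at 314 to 1536 in middle-aged libraries and 167 to 870 in young libraries.

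Spi1, which encodes PU.1, an ETS-family transcription factor of myeloid and B cells, was itself higher, with 284, 471 and 404 normalized counts in middle-aged libraries, against 36.4, 65.8 and 107 in young libraries (2.55 ± 0.39, adjusted p = 0.018; chosen after its values were seen). Its call was lost without middle-aged replicate 2 or young replicate 2. The 250 bases before the RefSeq start of the tested genes (GRCm38.p6, 10317 genes outside the immunoglobulins with a window, the first listed for each gene) were searched on both strands for 14 motifs. The letters GAGGAAGT, a PU.1 element, stood in 18 of 206 higher genes (8.74%), 2 of 90 lower genes (2.22%) and 2.65% of all genes. Stretches from 6 of the 18 are shown, because 5 of these genes (Elane, Mpo, S100a8, C1qc and Vav1) belong to the leukocyte, neutrophil and macrophage lists and the other, Slamf9, is among the largest increases, with the element in capitals, GAGGAAGT or its reverse complement ACTTCCTC, and 20 bases to each side where the window allows.
Elane (chr10:79886207-79886254, plus strand): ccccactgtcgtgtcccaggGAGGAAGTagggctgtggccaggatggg
Mpo (chr11:87793540-87793587, plus strand): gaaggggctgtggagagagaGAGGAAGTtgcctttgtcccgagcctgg
S100a8 (chr3:90668879-90668926, plus strand): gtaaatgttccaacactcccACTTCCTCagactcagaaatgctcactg
C1qc (chr4:136893082-136893129, minus strand): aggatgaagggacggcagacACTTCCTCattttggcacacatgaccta
Vav1 (chr17:57279069-57279099, plus strand): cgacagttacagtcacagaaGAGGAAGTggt
Slamf9 (chr1:172475332-172475359, plus strand): ggaggagtttaatgtgtacaGAGGAAGT

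The element ended 78 bases before the start in Elane, 217 in Mpo, 165 in S100a8, 188 in C1qc, 4 in Vav1 and 1 in Slamf9. The related forms AGAGGAAG and GGAAGTG, which overlap GAGGAAGT, stood in 8.74% and 20.9% of higher genes, 1.11% and 3.33% of lower genes and 3.82% and 11.3% of all. The RUNX element TGTGGTT stood in 5.83%, 3.33% and 3.15% of the same groups, and the octamer ATTTGCAT, known from immunoglobulin promoters, in 2.43%, 1.11% and 1.34%. The other 9 motifs were searched in the same way. The SOX element CATTGTT stood in 1.94% of higher genes, 0% of lower genes and 1.64% of all genes, and the AP-1 element TGANTCA in 5.83%, 7.78% and 4.26%. The TATA box, searched as TATAAA, stood in 8.74% of higher genes, 13.3% of lower genes and 6.67% of all, and the E-box CAGCTG in 13.1%, 17.8% and 11.5%, so these shares and that of AP-1 were highest in the lower genes. The cyclic AMP response element TGACGTCA stood in 0% of higher genes, 2.22% of lower genes and 2.63% of all, and the CCAAT box in 32.5%, 30.0% and 36.4%. The unfolded protein response element GACGTGG stood in 1.46% of higher genes, 2.22% of lower genes and 2.92% of all. The E2F element TTTGGCGC stood in 0.485% of higher genes, 0% of lower genes and 0.843% of all, and an EBF palindrome in 0.485%, 0% and 0.95%. A match describes letters only, and no test was made of these shares.

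Genes of cell division were positive in all 18 tested members (median 1.13), but 0 passed by limma or edgeR, while DESeq2 called 7 and 14 were higher at an unadjusted p under 0.05. Top2a, the topoisomerase of replicating cells, had 3143, 3487 and 4291 normalized counts in middle-aged libraries and 1252, 1827 and 1014 in young ones (1.45 ± 0.35, adjusted p = 0.055). Mki67, a proliferation marker, had 4456, 5431 and 3518, against 2437, 3043 and 815 (1.27 ± 0.50, adjusted p = 0.16). Of 49 tested histone genes, 47 were positive (median 1.28) and 7 passed, all higher, against 2.14% of all tested genes, led by Hist1h2bb, Hist1h2bg and Hist2h2ac (2.34 ± 0.55, 2.30 ± 0.47 and 1.78 ± 0.41). The calls of Hist1h2bb and Hist2h2ac were lost in 8 of the 9 fits with a library left out. Lmnb1, a nuclear lamina gene that is known to fall in senescent cells, was higher, with 941, 1186 and 1359 normalized counts in middle-aged libraries, against 332, 503 and 275 in young ones (1.68 ± 0.27, adjusted p = 0.018). It was the only one of 8 tested senescence genes that passed, beside 2.14% of all tested genes that were higher.

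Among the stromal lists, all tested niche, cartilage and bone-forming genes were lower in value, but few passed the test. The fibroblast and adipogenic lists were mixed, with 9 of 14 and 9 of 13 tested genes negative. All 20 niche genes had a negative log2 fold change, between -2.34 and -0.91 (median -1.33), 19 of them without overlap between groups, and 0 passed by limma or edgeR, while DESeq2 called 12 and 17 were lower at an unadjusted p under 0.05. Over all tested genes, 15.1% lay below the young range. Lepr, the receptor used for the sort, had 57603, 43100 and 14455 normalized counts in middle-aged libraries and 89872, 78029 and 102235 in young ones (-1.44 ± 0.51, adjusted p = 0.13, and 0.039 without middle-aged replicate 1). Cxcl12 had 301990, 233671 and 75974, against 465789, 454524 and 570245 (-1.50 ± 0.78, adjusted p = 0.26), and Kitl had 15462, 14135 and 3986, against 25153, 21783 and 22102 (-1.27 ± 0.45, adjusted p = 0.13). In all 3 genes middle-aged replicate 3 was the lowest library by a wide margin. It was also the library with the highest immunoglobulin share and the highest shared leukocyte sum, and the part of these transcripts in the stromal differences was not tested. Foxc1 and Ebf3, transcription factors that maintain the niche, had log2 fold changes of -1.42 ± 0.34 and -1.38 ± 0.40 (adjusted p = 0.051 and 0.087), and Pdgfra and Adipoq of -1.20 ± 0.34 and -1.58 ± 0.43 (adjusted p = 0.083 and 0.074). Igfbp5 and Bgn, the other abundant stromal genes, were at -1.17 ± 0.61 and -1.38 ± 0.47 (adjusted p = 0.27 and 0.13), and B2m at 0.18 ± 0.55 (adjusted p = 0.87).

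Because the niche genes moved as a block, levels were also set against them. Per 1000 normalized counts of Lepr, Cxcl12 stood at 5243 to 5422 in middle-aged libraries and 5183 to 5825 in young ones, and Adipoq at 123 to 172 and 149 to 192, so the groups overlapped. Kitl overlapped as well, at 268 to 328 and 216 to 280, whereas Pdgfra stood at 72.9 to 97.6 in middle-aged libraries and 64.0 to 71.1 in young ones, without overlap. Scaling every library by the 20 niche genes moved the median log2 fold change of all genes up by 1.31. Relative to that scale 24 genes were lower (0.16% of those tested) and 22 of them were also lower without it, while 1325 other genes and 81 immunoglobulin genes were higher (9.39% of those tested). Under this scaling Kitl, Pdgfra, Igfbp5, Notch2, Hey1, Alpl, Stat5a, Pecam1 and Eng, which are given with negative values elsewhere, changed sign. Kitl, Pdgfra and Igfbp5 are among the 20 niche genes that set the scale, so their values near 0 follow from it. The other lower calls, given elsewhere without this scaling, were lost under it. The 24 included the cartilage genes Matn3, Col9a1, Acan, Col11a1 and Ucma, the adhesion genes Clstn2 and Edil3, and Tacr1, Dlx4, A2m, C6, Socs2, Apod, Ptgis and Abcc9.

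Cartilage genes fell furthest among the stromal lists. All 12 were negative (median -4.72) and 9 were without overlap, beside 15.1% of all tested genes that lay below the young range. The test was passed by 4, which stands against 0.868% of all tested genes that were lower. Matn3, a matrilin of cartilage matrix, had 0, 2.22 and 0 normalized counts in middle-aged libraries, against 109, 539 and 42.7 in young ones, a pooled ratio of 350 lower with a counting interval of 96.6 to 2892 (adjusted p = 0.024, and up to 0.11 with a library left out). Col9a1, a collagen IX chain, had no read in middle-aged libraries, against 136, 629 and 6.74 in young ones, which is at least 54.5-fold lower, against 3 reads per middle-aged library (adjusted p = 0.049, and 0.078 by edgeR). Acan, aggrecan, had 19.7, 8.90 and 0, against 201, 639 and 68.5 (-5.14 ± 1.15, adjusted p = 0.043). Hapln1, which links aggrecan to hyaluronan, was the fourth, with 76.2, 74.5 and 11, against 423, 2679 and 228 (-3.95 ± 0.94, adjusted p = 0.04996). Young replicate 2 was the highest library in each of these 4 genes, and the young libraries themselves differed several-fold. Ucma, a cartilage matrix protein of the growth plate, had no read in middle-aged libraries, against 40.9, 88.0 and 24.7 in young ones, at least 10.8-fold lower (adjusted p = 0.030). The summed level of the 12 genes was 217 to 2854 normalized counts in middle-aged libraries and 3901 to 21042 in young ones, and Col9a1 and Col9a2 were at 0 in all middle-aged libraries.

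The remaining genes among the 10 with the largest fall belonged to other families. Tacr1, the receptor for substance P, had 10.3, 5.56 and 0 normalized counts in middle-aged libraries, against 218, 114 and 110 in young ones (-5.07 ± 0.86, adjusted p = 0.018). Dlx4, a homeobox gene, had 3.43, 1.11 and 0, against 62.2, 41.3 and 66.2 (-4.74 ± 0.82, adjusted p = 0.020). Slc13a5, a citrate transporter, had 3.43, 0 and 0, against 67.5, 88.5 and 55.0 (-5.41 ± 1.12, adjusted p = 0.033). All 3 were at or near 0 in every middle-aged library and at 41.3 or more in every young one. Prss35, a serine protease homolog, had 0, 1.11 and 0, against 118, 32.9 and 30.3 (pooled ratio 142 lower, 25.2 to 5620, adjusted p = 0.033), and Gprc5c, an orphan receptor, had 3.43, 0 and 0, against 26.6, 79.0 and 50.5 (-4.88 ± 1.03, adjusted p = 0.036).

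Bone-forming genes followed in the same direction. Of 16 tested osteogenic genes all were negative (median -1.72), 14 without overlap, and 4 were lower by the test, among them Ibsp, Sparc and Dlx5. Over all tested genes 15.1% lay below the young range and 0.868% were lower by the test. Ibsp, bone sialoprotein, had 7849, 7611 and 2047 normalized counts in middle-aged libraries, against 21397, 25751 and 21274 in young ones (-2.19 ± 0.45, adjusted p = 0.033). Sparc, osteonectin of bone matrix, had 17432, 11332 and 3920, against 36461, 40512 and 37341 (-2.05 ± 0.47, adjusted p = 0.046). Dlx5, a homeobox regulator of osteoblasts, had 164, 89.0 and 88.0, against 302, 391 and 304 (-1.59 ± 0.37, adjusted p = 0.047). The young libraries lay close together in these 3 genes, whereas middle-aged replicate 3 stood lowest. By edgeR 1 of the 16 passed and by DESeq2 12, and the adjusted p of Ibsp, Sparc and Dlx5 reached 0.12, 0.15 and 0.17 with a library left out. Col1a1, the main collagen of bone, had 4724, 5026 and 506, against 11516, 15802 and 14415 (-2.59 ± 0.70, adjusted p = 0.073), and Alpl, alkaline phosphatase of osteoblasts, had 746, 825 and 638, against 1377, 1737 and 1001 (-0.87 ± 0.29, adjusted p = 0.12). Per 1000 counts of Lepr, Ibsp stood at 136 to 177 in middle-aged libraries and 208 to 330 in young ones, and Sparc at 263 to 303, against 365 to 519, so both remained below the young range on that scale. Dlx5 stood at 2.06 to 6.09, against 2.98 to 5.01, and Alpl at 13.0 to 44.1, against 9.79 to 22.3, with overlapping groups. Under scaling by the niche genes 0 of the 16 genes were lower and 1 was higher by limma (median -0.39), and Ibsp, Sparc and Dlx5 had adjusted p-values of 0.068, 0.091 and 0.71.

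Signaling genes of bone held a few calls each, which stand beside the 0.868% of all tested genes that were lower. In the Wnt list 2 of 22 tested genes were lower (median -1.28): the secreted inhibitors Sfrp4, with 8647, 5891 and 1928 normalized counts in middle-aged libraries, against 17705, 18594 and 17564 in young ones (-1.96 ± 0.45, adjusted p = 0.047), and Wif1 (-1.66 ± 0.37, adjusted p = 0.043). Axin2, a target of canonical Wnt signaling, had 61.7, 3.34 and 0, against 40.9, 80.8 and 49.4 (adjusted p = 0.20), with overlapping groups. In the BMP and TGF-beta list 1 of 20 was lower, Bmp4, a ligand for bone formation, with 1406, 1078 and 602, against 3297, 2628 and 4645 (-1.82 ± 0.40, adjusted p = 0.039). In the insulin-like growth factor list 1 of 10 was lower, Igf1, with 3310, 3316 and 1667, against 7900, 7522 and 8374 (-1.59 ± 0.29, adjusted p = 0.024). Per 1000 counts of Lepr, Igf1 stood at 57.5 to 115 in middle-aged libraries and 81.9 to 96.4 in young ones, and Bmp4 at 24.4 to 41.7 and 33.7 to 45.4, so these 2 overlapped on that scale. By edgeR, 0 genes of the Wnt list and 0 of the BMP and TGF-beta list passed, and Igf1 passed. Of 14 tested Notch genes 0 passed by limma or edgeR and 1 by DESeq2, and 7 were lower at an unadjusted p under 0.05. Notch2, the receptor, had 2302, 2164 and 875 normalized counts in middle-aged libraries and 2628, 2831 and 2578 in young ones (-0.71 ± 0.33, adjusted p = 0.22). Jag1, a ligand, and Hey1, a target, were at -1.34 ± 0.55 and -1.05 ± 0.44 (adjusted p = 0.17 and 0.18).

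The genes of this paragraph were picked out singly after their values were seen and stand for no list. Cish, an inhibitor of cytokine signaling, had 191, 270 and 212 normalized counts in middle-aged libraries, against 844, 504 and 1096 in young ones (-1.80 ± 0.34, adjusted p = 0.026), and was at -0.46 (adjusted p = 0.52) under scaling by the niche genes. Socs2, an inhibitor of growth hormone signaling, had 242, 172 and 24.8, against 1107, 511 and 1406 (-3.17 ± 0.71, adjusted p = 0.043, and 0.046 under that scaling). Stat5a, a transcription factor of cytokine signaling, had 328, 251 and 270, against 533, 728 and 726 (-1.22 ± 0.25, adjusted p = 0.033), but its log2 fold change was 0.12 (adjusted p = 0.87) under scaling by the niche genes. The groups did not overlap in any of the 3. Lbp, which binds bacterial lipopolysaccharide, had 3282, 2811 and 1092 normalized counts, against 7141, 7383 and 7047 (-1.73 ± 0.35, adjusted p = 0.032), and C2, a complement protease, and Serpina3g were at -2.17 ± 0.44 and -1.88 ± 0.42 (adjusted p = 0.032 and 0.044). Under scaling by the niche genes Lbp, C2 and Serpina3g did not pass (adjusted p = 0.31, 0.093 and 0.21). A2m, a protease inhibitor of plasma, had 1255, 304 and 55.0, against 3974, 4124 and 3432 (-3.79 ± 0.82, adjusted p = 0.039), whereas complement C6 did not pass (adjusted p = 0.064). Apod, an apolipoprotein, had 520, 416 and 140, against 2322, 2807 and 1960 (-2.90 ± 0.46, adjusted p = 0.018). Cdh2, N-cadherin, had 2142, 1753 and 1001, against 5214, 5378 and 4802 (-1.72 ± 0.28, adjusted p = 0.018, and 0.39 under scaling by the niche genes).

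**Figure D5:**
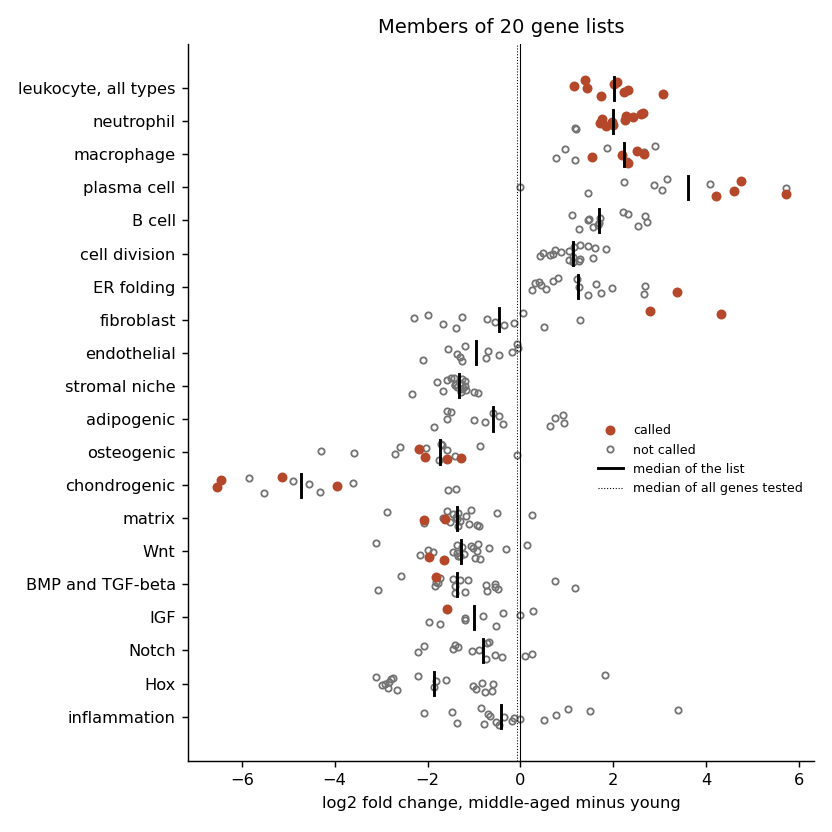
Log2 fold change of middle-aged minus young (horizontal axis) of the tested members of 20 gene lists (rows), filled where called and open where not, with a bar at the list median and a dotted line at the median of all genes tested. Leukocyte, neutrophil and plasma cell lists lie to the right, with medians of 2.01, 1.98 and 3.61, and niche, osteogenic and cartilage lists to the left, with medians of -1.33, -1.72 and -4.72.

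Matrix genes were lower in 2 of 20 tested members, against 0.868% of all tested genes, Fmod and Loxl2 (-2.08 ± 0.44 and -1.62 ± 0.34), which organize and crosslink collagen. Of 34 tested collagens 30 were negative (median -2.00), and Col9a1 and Col5a2 (-1.53 ± 0.33, adjusted p = 0.038) passed, against the same 0.868%. Abcc9, a channel subunit of pericytes, was the one of 8 tested mural genes that passed, beside 0.868% of all tested genes that were lower. It had 696, 315 and 116 normalized counts in middle-aged libraries, against 1839, 1911 and 2391 in young ones (-2.79 ± 0.50, adjusted p = 0.024). Acta2, smooth muscle actin, had 30.8, 79.0 and 93.5, against 5.33, 25.7 and 7.86 (2.44 ± 0.95, adjusted p = 0.16). Of 14 fibroblast genes 9 were negative (median -0.45), and 2 were lower at an unadjusted p under 0.05. The surface antigens Ly6a and Pi16 were higher by the test, beside 2.14% of all tested genes. Ly6a, which encodes Sca-1 and is also carried by lymphocytes, had 982, 2283 and 9922, against 180, 82.6 and 185 (4.32 ± 0.83, adjusted p = 0.027). Pi16, a marker of fibroblast progenitors, had 170, 160 and 77.0, against 30.2, 10.2 and 18.0 (2.78 ± 0.57, adjusted p = 0.034). Middle-aged replicate 3 was the highest library for Ly6a and the lowest of its group for Pi16.

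Several lists gave no call by limma or edgeR. Their counts at an unadjusted p under 0.05 stand beside 1463 higher and 1951 lower of the 14803 other genes. Adipogenic genes had a median log2 fold change of -0.58 over 13 members, 2 of them higher and 4 lower at an unadjusted p under 0.05 (DESeq2 called 4). Pparg, the master regulator of fat cells, had 756, 627 and 168 normalized counts in middle-aged libraries and 1354, 1013 and 1555 in young ones (-1.58 ± 0.47, adjusted p = 0.092). Endothelial genes had a median of -0.97 over 12 members, 1 of them lower at an unadjusted p under 0.05 (DESeq2 called 0). Pecam1, the endothelial adhesion molecule CD31, had 79.7, 117 and 195, against 95, 108 and 211, with overlapping groups, and Eng, endoglin, had 330, 395 and 99.0, against 618, 513 and 619. Inflammation genes had a median of -0.41 over 18 members, 2 of them higher and 4 lower at an unadjusted p under 0.05 (DESeq2 called 2). Ccl2, a monocyte chemokine, had 3013, 2879 and 578, against 4558, 3719 and 6224 (adjusted p = 0.17), and Il1r1, the receptor for interleukin 1, had 2740, 3295 and 580, against 4617, 4752 and 4080 (adjusted p = 0.15). Hox genes, which hold positional identity, had a median of -1.85 over 19 members, 5 of them lower at an unadjusted p under 0.05 (DESeq2 called 0), with Hoxa10 at 155, 377 and 8.25, against 263, 412 and 483 (adjusted p = 0.23).

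Interferon, immediate early, angiogenic and imprinted genes had medians of -0.82, -0.67, -1.19 and -1.34, with 4 of 14, 3 of 11, 8 of 12 and 4 of 7 members lower at an unadjusted p under 0.05, and DESeq2 called 2, 0, 4 and 0 of them. Ribosomal proteins (80 members), nuclear oxidative phosphorylation genes (76) and mitochondrially encoded genes (11) had medians of 0.64, 0.35 and 0.64, with 44, 9 and 1 members higher at an unadjusted p under 0.05, and DESeq2 called 21, 4 and 0. The unadjusted counts again stand beside 1463 higher and 1951 lower of the 14803 other genes. The 3 tested muscle genes had a median of -1.14 and the 2 tested Schwann cell genes stood at -1.54 and 1.40, both at an unadjusted p under 0.05 and both called by DESeq2.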

How the data were processed

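Reads of the series were sequenced on an Illumina HiSeq 2500, converted with bcl2fastq, aligned to the mouse genome (mm10/GRCm38) with STAR, counted per gene with featureCounts and normalized with DESeq2 by the authors. Their versions, annotation and strand setting are not given in the sources used here, so overlapping and antisense genes may share reads. The deposited values are normalized counts, recorded here as a signal: each was a read count divided by a library size factor, and 100% of values gave whole reads within 0.1. Tests used limma 3.58.1 in R 4.3.3 on log2(value + 1) with a trended spread over all 9 libraries, for genes with a mean of at least 10 over the 6 libraries compared. A fold change on this scale understates the change of low genes. The count tools edgeR (4.0.16) and DESeq2 (1.42.0) were run as alternatives, on reads recovered from the table. On data simulated for this comparison (14341 genes) limma recovered 42% of 100 genes changed 4-fold and 82% of 100 changed 16-fold.

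The members, lists and rules were chosen with earlier results of these data known. Named genes were the 10 largest and 10 smallest called changes outside the immunoglobulins with groups apart and a higher mean of at least 50 (predicted models left out), up to 3 called members of each of 39 lists, a set of fixed stromal and signaling genes, the constant regions, 3 variable segments, the 5 most abundant protein-coding genes (immunoglobulin and mitochondrially encoded genes left out) and up to 2 abundant members of lists without a call. Any other name was chosen after values were seen, also where its sentence does not say so. Hapln1, Tnfrsf13b, Col11a1, Edil3 and Ptgis are such names. Some genes of the lists are counted but not reported here by name. Coordinates are those of GENCODE M21 (GRCm38), where 91.5% of symbols matched once. Promoter sequences are from RefSeq (GRCm38.p6). The main fit did not pair libraries by replicate number. Deviations from the group means correlated at 0.043, 0.012 and 0.042 between same-numbered libraries, and from -0.039 to 0.0079 between the others. With 3 libraries in each group these values cannot settle whether the numbers mark a pairing.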

Additional observations from a re-analysis of the deposited data

Results flagged for a closer look

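The salicylate-treated libraries of 52-week-old mice, which entered the fit only for the spread between libraries, also held more immunoglobulin reads than the young libraries. Their shares were 1.53%, 1.55% and 8.33%, against 0.108% to 0.480% in young libraries, and this difference was not tested.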

How the results depend on the processing

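Counts of other genes higher, other genes lower and immunoglobulin genes higher were 277, 130 and 43. They were within 1.5 times of this, in all 3 counts, with TMM or upper-quartile scaling, size factors without immunoglobulin genes, a minimum of 10 over all 9 libraries or of 50, a pseudocount of 0.5 or 5, and a robust fit. DESeq2 gave 979, 627 and 70, edgeR 51 lower, the fit of the 6 libraries alone 23, 2 and 21, no filter 161 and 38 (without immunoglobulin genes), no trend 38, 27 and 18, scaling by the total 27, 6 and 26, and scaling by the niche genes 1325, 24 and 81. The replicate block gave 193, 41 and 47. With 1 library left out the counts ran from 6 to 820, from 3 to 1239 and from 17 to 62. The difference in immunoglobulin share was 17.2 percentage points, 26.4 without mitochondrial ribosomal RNA and 9.61 to 24.3 with a library left out. The causes of these changes were not tested. Scaling by the total moved the median log2 fold change by -0.46 and by the niche genes by 1.31. Under scaling by the niche genes the log2 fold change turned positive for Kitl (0.073), Pdgfra (0.14), Notch2 (0.63), Hey1 (0.28), Alpl (0.47), Pecam1 (1.25), Igfbp5 (0.17), Eng (0.030) and Stat5a (0.12). Kitl, Pdgfra and Igfbp5 belong to the niche genes that set this scale. B2m turned to -0.31 under scaling by the total and ran from -0.40 to 0.59 with a library left out, and Pecam1 from -0.42 to 0.27.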
